A study of Homo sapiens with 52 samples.

Results

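The measurements described are the mRNA levels of 10 integrin subunit genes whose receptors bind fibronectin, collagen or vitronectin: ITGA1, ITGA2, ITGA4, ITGA5, ITGAV, ITGB1, ITGB3, ITGB5, ITGB6 and ITGB8. They were taken by gene name, with earlier results of these data known, from 78894 genes with deposited counts and TPM (transcript abundance scaled for length and depth), and all 10 were found. Bulk mRNA had been sequenced from 52 samples of 3 cell lines of human breast cancer that are described as claudin-low: SUM159PT (17 samples), MDA-MB-231 (18) and HS578T (17). Each line was compared with and without knockdown of NRP1, a co-receptor for semaphorins and vascular endothelial growth factor that is made in transmembrane and soluble forms. Every sample analysed here carried either a transfected siRNA or an integrated shRNA, the NT controls included.

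In each line there were 6 groups. siNT, siNRP1#3 and siNRP1#5 received 20 nM of a non-targeting (NT) or NRP1-targeting siRNA, and their RNA was collected 72 hrs after transfection. shNT, shNRP1#3 and shNRP1#5 were transduced with lentivirus, selected as a pool with puromycin and harvested 48 hrs after seeding, and their replicates were consecutive passages of 1 transduced culture. Both sequences numbered #3 target only transmembrane NRP1 and differ from each other, whereas siNRP1#5 and shNRP1#5 have 1 shared sequence that targets both forms. Groups held 3 samples, except SUM159PT siNRP1#5 and HS578T shNRP1#3 with 2. P-values therefore measure the spread between these samples, which for the passages of 1 culture may be smaller than that between separate transductions.

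Integrins are heterodimers of an α and a β subunit that hold cells to the extracellular matrix and pass signals in both directions across the membrane through adaptors such as talin and kindlin. α1 and α2 pair with β1 to bind collagens, α5 and α4 pair with β1 to bind fibronectin, and α4β1 also binds VCAM1. αV pairs with β1, β3, β5, β6 or β8 and binds vitronectin, fibronectin and the latent form of TGF-β through an RGD motif, so a change of one β subunit can shift which ligands a cell adheres to.

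The NRP1 knockdown was checked first. NRP1 fell in 11 of the 12 comparisons with the NT control of its own kind, with log2 fold changes between −0.70 in MDA-MB-231 siNRP1#3 and −4.88 in MDA-MB-231 siNRP1#5. In TPM of the whole gene, MDA-MB-231 siNRP1#3 was not lower (NRP1, 28.5 ± 3.36 against 28.8 ± 3.02 in siNT, SD, n = 3), so the smallest of these falls is seen here in counts and not in TPM. Both measures also hold soluble NRP1, which #3 does not target. By RT-qPCR the authors report transmembrane NRP1 as significantly repressed in this group. In HS578T shNRP1#3 the 2 samples had 46.5 and 46.2 CPM (counts scaled to the size of the library) against 128, 122 and 162 in shNT, a log2 fold change of −1.59 with an adjusted p of 0.069 by edgeR's quasi-likelihood test, and did not pass. Each sample had between 25310443 and 72003442 counts, with a median of 44804505. VIM, the mesenchymal filament gene, was between 1311 and 6093 TPM in all 3 lines and CDH1 stayed at or below 3.33 TPM. CLDN4 was at 62.6 to 226 TPM and CLDN7 at 10.4 to 61.5 TPM in MDA-MB-231, so these 2 claudins were not low in that line. CD3E and SPI1 stayed at or below 0.35 TPM and CDH5 and VWF at or below 3.87 TPM, while CD68 reached 352 TPM in HS578T and 235 TPM in MDA-MB-231, and PTPRC 13.1 and PECAM1 15.9 TPM in SUM159PT.

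One group had counts of genes that mark another line. The 3 HS578T siNRP1#5 samples carried 23.0, 17.8 and 12.9% of the MDA-MB-231 level of 60 genes that HS578T controls lack, and the second of them also 5.54% of the SUM159PT level of 29 genes absent from both other lines. HS578T siNRP1#3 samples carried 2.43 to 7.13% and HS578T siNT samples 0.651 to 2.19% of the same MDA-MB-231 genes. In MDA-MB-231, 1 shNRP1#3 sample (replicate 3) carried 2.12% of the HS578T and 2.39% of the SUM159PT marker level. Called results of members that rest on HS578T siNRP1#5 are also given with the MDA-MB-231 share subtracted from the counts of that group. The counts of siNRP1#3 were left as measured, unless both siRNA groups are named. The SUM159PT share in the second siNRP1#5 sample was not subtracted in any fit, so subtracted values still hold it.

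**Figure D1:**
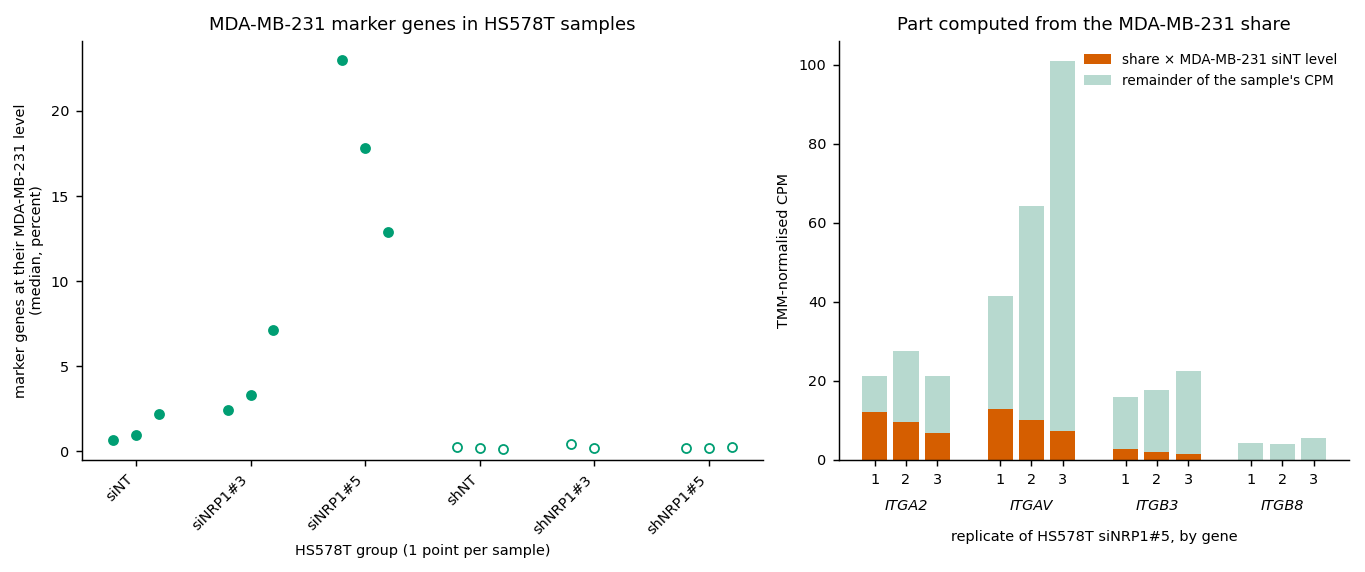
Left, median level of 60 MDA-MB-231 marker genes in each HS578T sample, as percent of their MDA-MB-231 control level (1 point per sample), with siNRP1#5 at 12.9 to 23.0% and siNRP1#3 at 2.43 to 7.13%. Right, CPM of 4 members in the 3 siNRP1#5 samples (bars), with the part that the share times the MDA-MB-231 siNT level would give in orange, such as 12.2, 9.48 and 6.86 CPM for ITGA2.

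The order of the members in control cells was led by the subunits of the fibronectin receptor and by β5. Levels are in TPM, which is scaled for transcript length so that genes can be compared, and are given as mean ± SD with n = 3. ITGA5 stood first in SUM159PT siNT at 322 ± 63.8 and in HS578T siNT at 620.0 ± 172, and ITGB1 first in MDA-MB-231 siNT at 259 ± 28.7. In SUM159PT, ITGB1 (194 ± 77.2) and ITGB5 (144 ± 33.5) followed and overlapped each other. In MDA-MB-231, ITGA5 (181 ± 30.4) lay below ITGB1 with no overlap of their samples, and above ITGB5 (126 ± 17.1), likewise without overlap. In HS578T, ITGB5 (382 ± 83.8) came next and then ITGB1 (134 ± 68.0). These 3 genes held the first 3 ranks in all 6 control groups.

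The remaining members were lower by a wide margin. In SUM159PT siNT, ITGB3 was at 42.1 ± 7.74, ITGAV at 30.4 ± 16.0 and ITGA2 at 19.0 ± 10.7 TPM, and the ranges of these neighbours overlapped. In MDA-MB-231 siNT, ITGAV (14.2 ± 2.48) and ITGA2 (10.2 ± 2.05) stood above ITGA1 (3.56 ± 0.580) and ITGB3 (3.28 ± 0.897). In HS578T siNT, ITGB3 (10.3 ± 1.65) stood above ITGAV (5.15 ± 2.49) and ITGA4 (4.99 ± 1.26), and ITGA1 was at 2.41 ± 1.3. The collagen receptor subunit ITGA2 was 1.06 ± 0.272 TPM in HS578T, and ITGB8 stayed at or below 2.71 TPM in every control sample. ITGB6, the epithelial partner of αV, had at most 52 counts in any of the 52 samples and 0.13 TPM or less in the controls.

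**Figure D2:**
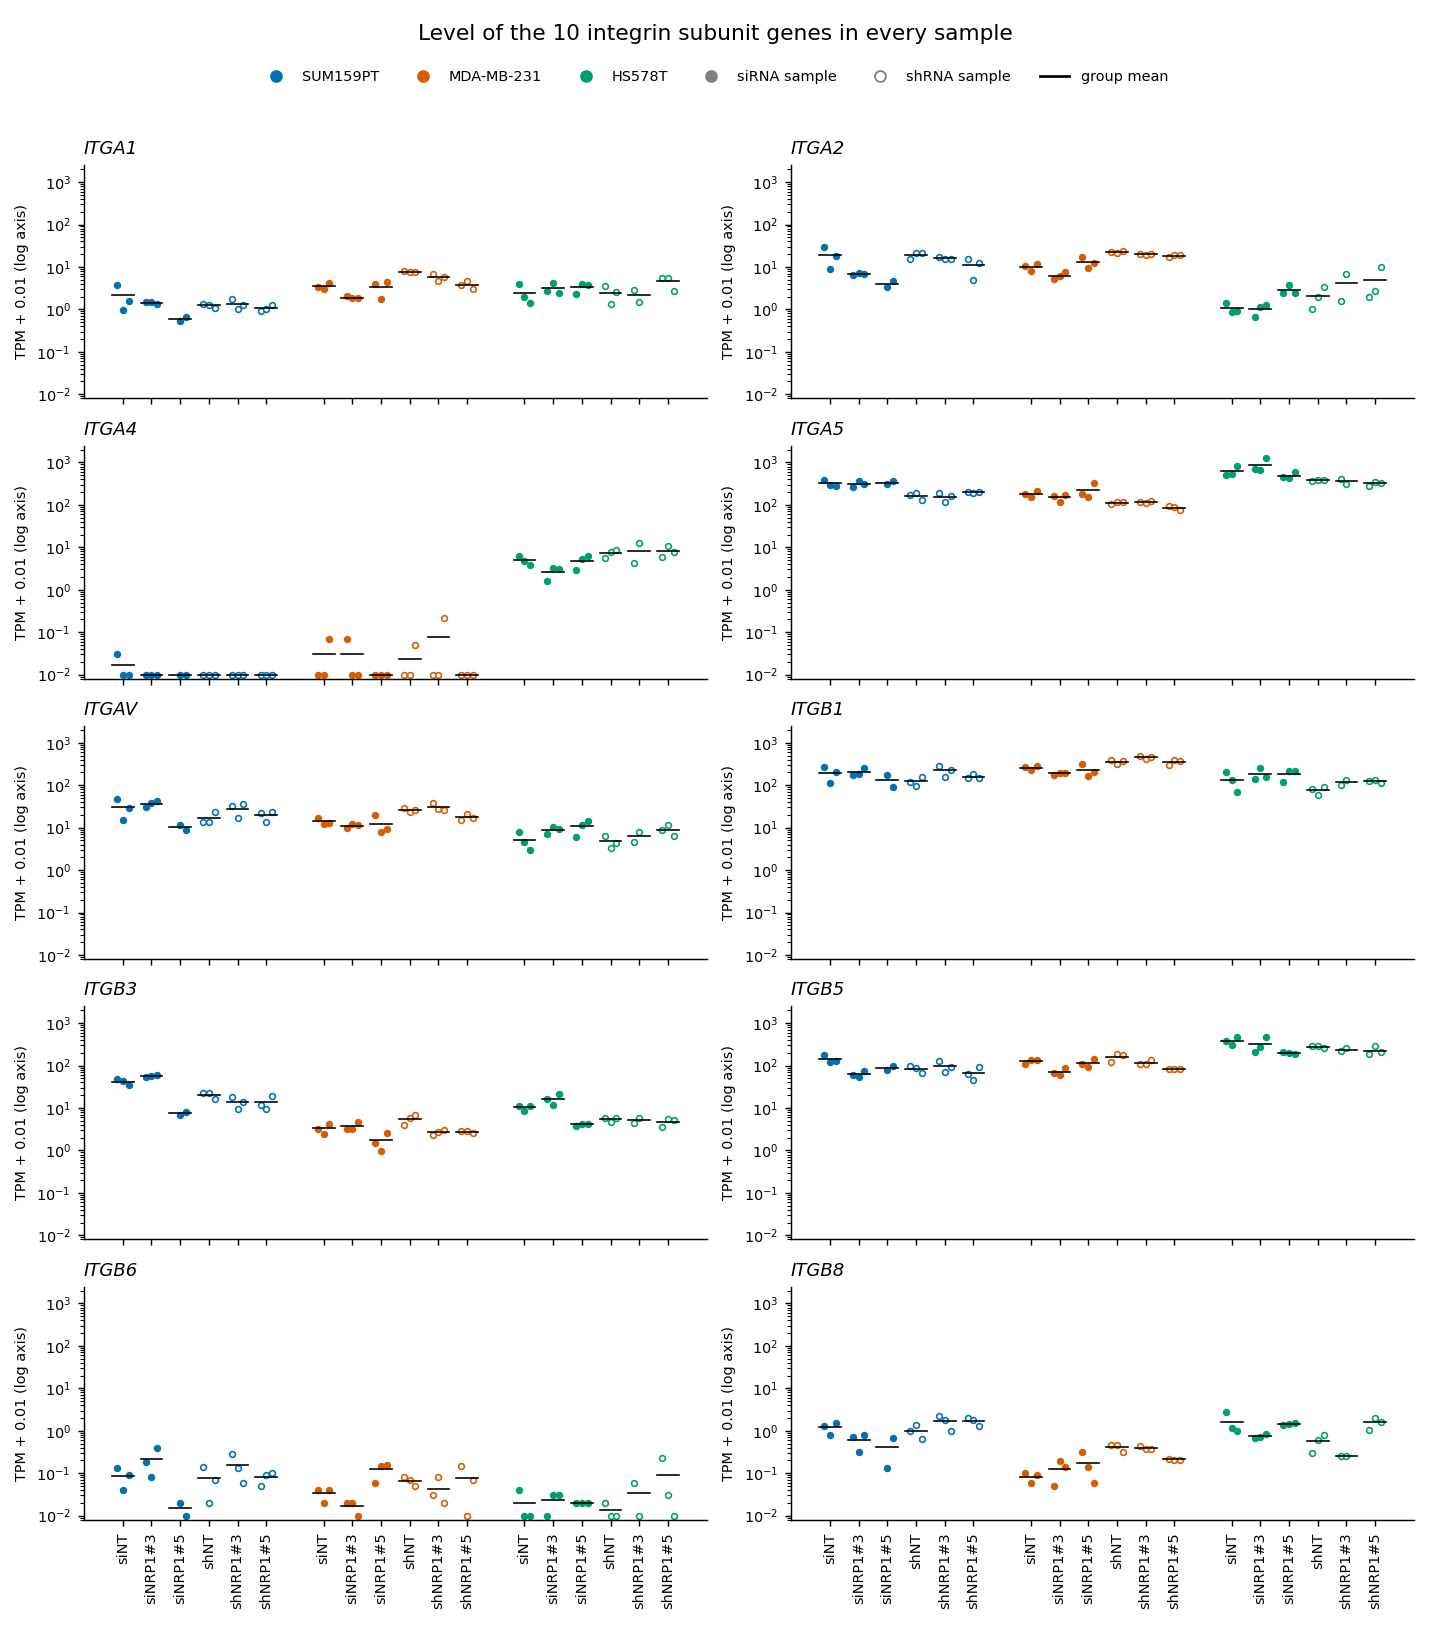
Level of the 10 members in every sample of the 18 groups, in TPM + 0.01 on a log axis (1 point per sample, filled for siRNA and open for shRNA, lines at group means, colours by cell line). ITGA5, ITGB1 and ITGB5 hold the highest levels in every line, ITGA4 stands well above 0 in HS578T, and ITGB6 is low throughout.

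All 10 genes have 1 identifier each in the deposited tables, and coordinates are those of GRCh38 with GENCODE annotation. ITGA1 (chr5:52787916-52959209, plus strand) and ITGA2 (chr5:52989340-53094779, plus strand) are neighbours. ITGA4 (chr2:181457202-181538940, plus), ITGAV (chr2:186590010-186680901, plus) and ITGB6 (chr2:160099667-160200313, minus) share a chromosome, and ITGA5 lies at chr12:54395261-54419266 on the minus strand. ITGB1 is at chr10:32887273-33005792 (minus), ITGB3 at chr17:47253827-47313743 (plus), ITGB5 at chr3:124761948-124901418 (minus) and ITGB8 at chr7:20330702-20415754 (plus). ITGA1 starts at the same base as PELO on the same strand, its counts were fractional in 52 of 52 samples, and the transcript with most of its reads was often ITGA1-208, annotated for nonsense-mediated decay, so ITGA1 values are uncertain. ITGB3 overlaps an unnamed gene on its strand, with fractional counts in 21 of 52 samples.

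The isoform percent, the share of a gene's TPM that falls on 1 transcript, is described here without a test. ITGB1-201, which codes for the β1 protein, held between 78.2 and 83.4% of ITGB1 in the 6 control groups. ITGAV-201 held 71.1% of ITGAV in HS578T siNT and 31.0% in shNT, and 64.9% against 27.3% in MDA-MB-231. For ITGB8 the coding transcript ITGB8-201 held 93.7% in SUM159PT siNT, whereas in HS578T siNT the retained-intron transcript ITGB8-204 held 67.1% and ITGB8-201 12.8%. In HS578T shNT, ITGB8-204 held 46.2%.

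Promoter sequences are shown for 4 members. ITGA2 and ITGB5 fell in several knockdown groups. ITGA5 had the highest level of the members in SUM159PT and HS578T controls, and ITGB6 had the fewest counts in HS578T. Each is a window of 200 bases upstream of a RefSeq start (GRCh38.p14, 5′ to 3′ on the gene's strand) that stops short of the start. The ITGA5 window, for example, ends at 54419317, while the annotated gene begins at 54419266 on the minus strand. Motifs in the bases nearest the start were thus not searched. Of the 10 members, 9 had an entry, and ITGB3, which fell furthest with knockdown, had none. Capitals mark letters of the motifs searched on both strands: GGGCGG (GC box), CACCTG (the E-box bound by ZEB1), GGAATG (TEAD), TGANTCA (AP-1) and TATAAA (the box of core promoters). The ITGA2 window (chr5:52989102-52989301, plus strand) is 78.5% G or C and holds 3 GC boxes. The ITGB5 window at its outermost start (chr3:124901469-124901668, minus strand) is 55% G or C with 1 GC box, that of ITGA5 (chr12:54419317-54419516, minus strand) holds 1 GC box and 1 TEAD motif, and that of ITGB6 (chr2:160200323-160200522, minus strand) is only 29.5% G or C with 1 E-box. ITGB5 also has inner starts, whose windows are not shown. That at chr3:124887735-124887934 is 57% G or C without a motif, and that at chr3:124887416-124887615 is 74.5% with 2 GC boxes and 1 E-box.
ITGA2: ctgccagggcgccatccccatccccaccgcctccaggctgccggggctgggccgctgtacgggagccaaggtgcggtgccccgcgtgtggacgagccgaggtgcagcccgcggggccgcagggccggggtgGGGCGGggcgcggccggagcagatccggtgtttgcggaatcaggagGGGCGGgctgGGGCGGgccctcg
ITGB5: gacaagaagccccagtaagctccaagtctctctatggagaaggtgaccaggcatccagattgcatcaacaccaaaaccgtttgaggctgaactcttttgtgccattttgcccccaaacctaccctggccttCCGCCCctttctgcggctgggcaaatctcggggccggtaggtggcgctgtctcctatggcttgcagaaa
ITGA5: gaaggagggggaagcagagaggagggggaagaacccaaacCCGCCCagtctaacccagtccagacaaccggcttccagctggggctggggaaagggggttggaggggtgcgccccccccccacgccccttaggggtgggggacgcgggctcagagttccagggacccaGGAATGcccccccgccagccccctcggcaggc
ITGB6: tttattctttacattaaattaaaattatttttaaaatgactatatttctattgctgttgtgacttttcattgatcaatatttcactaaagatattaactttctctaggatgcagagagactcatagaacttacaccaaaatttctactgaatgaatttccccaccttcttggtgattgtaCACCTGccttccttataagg
Over 35116 RefSeq windows cut in the same way, also without the bases nearest the start, the median content of G and C was 57.5%. A GC box was found in 35% of them, an E-box in 14.9%, a TEAD motif in 9.71%, a TATA motif in 7.63% and an AP-1 motif in 5.27%. No window of the 9 members held the AP-1 letters, which says only that these letters were not in these windows. A match is a description of letters and not a bound site.

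The cell lines differed in most members. Control samples of both kinds (siNT and shNT, n = 6 per line) were compared in 1 model over all 52 samples, which tested 23416 genes, with log2 fold changes ± SE. Adjusted p here and below are by edgeR's quasi-likelihood test and the Benjamini-Hochberg method, over all genes tested. SUM159PT differed from MDA-MB-231 in 7 of 10 members, beside 59.4% of all genes. HS578T differed from MDA-MB-231 in 9 members (70.2% of all genes) and from SUM159PT in 9 (63.5% of all genes). Both sets of 9 include ITGA4 and ITGB6, which passed the count filter of this model through the HS578T and the SUM159PT samples, respectively. Their calls therefore add nothing to the counts given for them below. Most genes tested thus differed between the lines as well.

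The β subunits that pair with αV differed between the lines. ITGB3, in CPM, was 144 to 227 in SUM159PT siNT, 9.17 to 14.8 in MDA-MB-231 siNT and 45.4 to 65.0 in HS578T siNT, and the 3 lines did not overlap. Its log2 fold change was 3.11 ± 0.21 for SUM159PT against MDA-MB-231 (adjusted p = 1.91e-16), 1.44 for HS578T against MDA-MB-231 (adjusted p = 2.97e-08) and −1.66 for HS578T against SUM159PT (adjusted p = 1.78e-09). ITGB8, whose αVβ8 dimer activates latent TGF-β, was 3.36 ± 0.31 higher on the log2 scale in SUM159PT than in MDA-MB-231 (adjusted p = 1.59e-12). It was 2.40 higher in HS578T than in MDA-MB-231 (adjusted p = 4.15e-09). For HS578T against SUM159PT the ITGB8 difference was −0.96 (adjusted p = 0.00262), which passed in 6 of 8 alternative settings. These are levels of the whole gene. In HS578T siNT most of the ITGB8 TPM fell on a retained-intron transcript, as given above. The differences with HS578T need therefore not hold for the coding transcript. ITGB5, the classical partner for vitronectin, was higher in HS578T than in the other lines by 1.77 and 1.73, and SUM159PT and MDA-MB-231 differed in it by only 0.04 without passing.

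Among α subunits, ITGA5 was highest in HS578T, by 2.53 ± 0.19 over MDA-MB-231 (adjusted p = 1.5e-15) and 1.47 over SUM159PT. It was also higher in SUM159PT than in MDA-MB-231 (1.06, adjusted p = 2.08e-06). ITGAV was lowest in HS578T, with log2 fold changes of −1.15 and −1.77. ITGA2 was likewise lowest in HS578T, by −2.63 against MDA-MB-231 (adjusted p = 2.46e-10) and −3.34 against SUM159PT (adjusted p = 1.72e-12). Between SUM159PT and MDA-MB-231, ITGA2 (0.71, adjusted p = 0.0247) and ITGAV (0.62, adjusted p = 0.0233) were higher in SUM159PT, but ITGA2 was lost without replicates numbered 1 or 2 (0.144 and 0.0605) and ITGAV without those numbered 2 or 3 (0.0646 and 0.139). ITGA1 was lower in SUM159PT than in MDA-MB-231 (−1.47, adjusted p = 4.94e-06). HS578T was higher than SUM159PT in ITGA1 by 1.08 (adjusted p = 0.000356), which did not pass by limma on TPM with a pseudocount of 1 (0.38, adjusted p = 0.0908) or 0.1 (0.56, adjusted p = 0.0638). The shared partner ITGB1 was highest in MDA-MB-231, with log2 fold changes of −0.60 for SUM159PT and −0.84 for HS578T against it, and the first was lost without replicates numbered 2 (ITGB1, adjusted p = 0.0709).

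ITGA4 was measured in HS578T and close to absent elsewhere. The 6 HS578T controls held 454 to 1067 counts, 3 of 6 MDA-MB-231 controls held any count, with 3 as the highest, and 1 of 6 SUM159PT controls held a single count. No fold is given for so few counts. Over all samples ITGA4 had counts in 17 of 17 HS578T samples, in 5 of 18 of MDA-MB-231 and in 1 of 17 of SUM159PT, and the highest MDA-MB-231 value, 23 counts, was in the shNRP1#3 replicate 3 sample that carried markers of both other lines. ITGB6 counts in the controls were 1 to 19 in SUM159PT, 2 to 8 in MDA-MB-231 and 0 to 2 in HS578T. ITGB6 entered this model through SUM159PT samples and was too low to test in the fits of the other lines alone. HS578T was called lower than MDA-MB-231 (adjusted p = 0.0226, lost without replicates numbered 2 or 3) and than SUM159PT (adjusted p = 0.00109). No difference is read from so few counts.

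**Figure D3:**
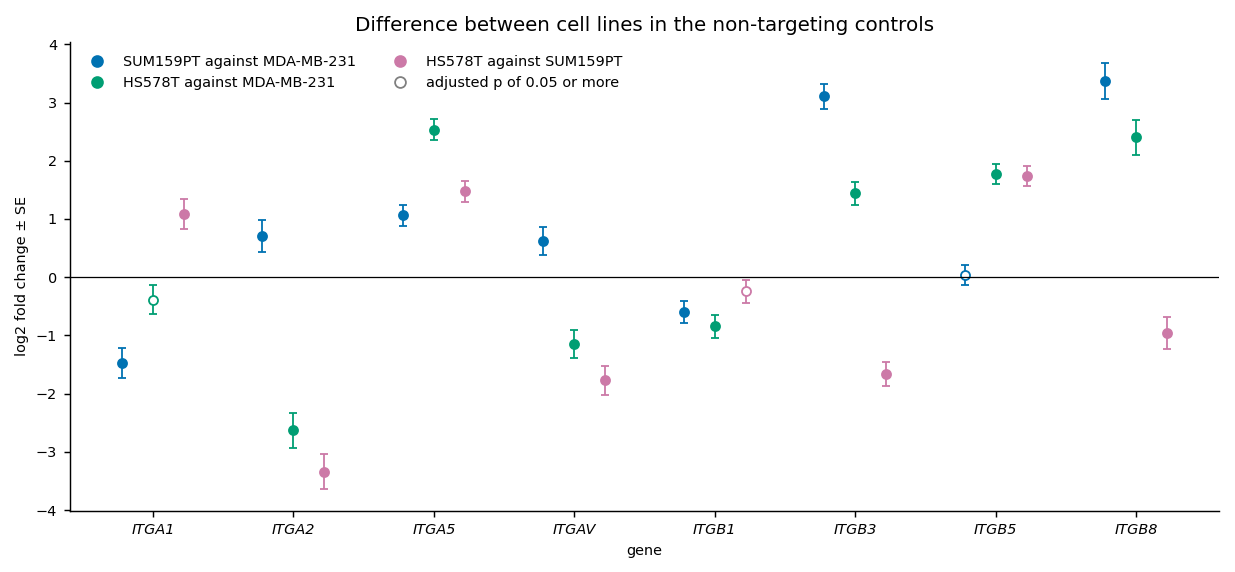
Difference between cell lines in the NT controls for 8 members, as log2 fold change (points) with its standard error (bars), for SUM159PT against MDA-MB-231, HS578T against MDA-MB-231 and HS578T against SUM159PT (open points did not pass). ITGA4 and ITGB6 are left out for their low counts, ITGB3 and ITGB8 lie above 3 for SUM159PT against MDA-MB-231, and ITGA2 lies below −2.6 in both HS578T comparisons.

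Knockdown of NRP1 was accompanied by lower levels of some members, more often with siRNA, as were calls over all genes. Each knockdown group was compared with the NT group of its kind in a model of its cell line, which tested 20067 genes for SUM159PT, 18800 for MDA-MB-231 and 19661 for HS578T. Over the 12 comparisons, 104 tests of members gave 21 that fell, 1 that rose and 82 that did not pass. With siRNA 16 of 52 tests fell and 1 rose, and with shRNA 5 of 52 fell, all 5 in MDA-MB-231, beside 17.3% and 5.34% of all gene tests pooled over the same comparisons. By member, ITGB3, ITGB5 and ITGB8 each fell in 4 comparisons, ITGA1 in 3, ITGA2 fell in 3 and rose in 1, ITGA4, ITGAV and ITGB1 fell in 1, and ITGA5 and ITGB6 passed in 0. The comparisons within a line share their NT samples and are not independent.

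In SUM159PT, siNRP1#3 gave 3 called members of 9 tested, all lower, beside 8.66% of all genes, and siNRP1#5 gave 4, all lower, beside 17.9%. shNRP1#3 gave 0 beside 1.4% and shNRP1#5 gave 0 beside 5.94%, with 4 and 2 members at an unadjusted p under 0.05 and 0 in each by DESeq2. In MDA-MB-231, where ITGA4 and ITGB6 were too low to be tested, 5 of 8 tested members were lower with siNRP1#3 beside 25.7% of all genes, and 1 was higher with siNRP1#5 beside 29.4%. There, 1 member was lower with shNRP1#3 beside 3.65% and 4 with shNRP1#5 beside 20.7%. In HS578T, 2 of 9 tested members were lower with siNRP1#3 beside 4.65% and 2 with siNRP1#5 beside 18.7%. shNRP1#3 gave 0 beside 0.0356% and shNRP1#5 gave 0 beside 0.946%, with 1 and 3 members at an unadjusted p under 0.05 and 0 and 1 by DESeq2.

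**Figure D4:**
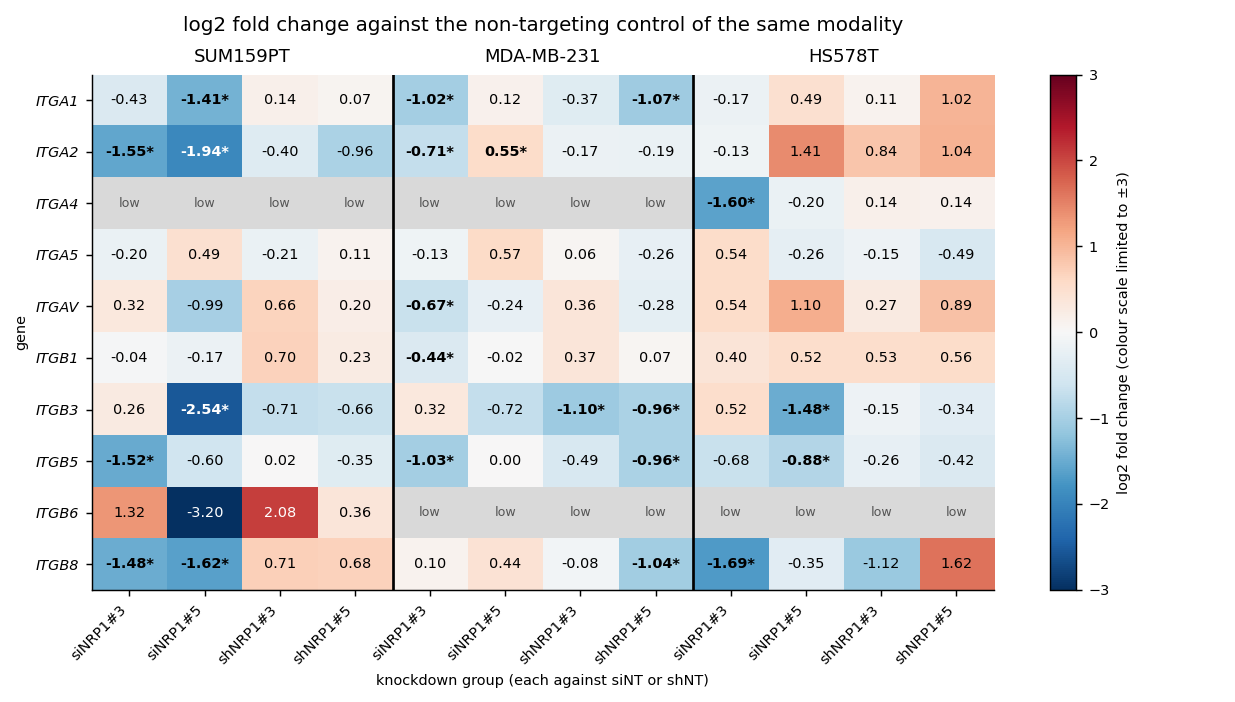
Log2 fold change of each member (rows) in the 12 comparisons of a knockdown group with its NT control (columns), with an asterisk where the adjusted p was below 0.05 by edgeR's quasi-likelihood test and grey where counts were too low to test. 22 of the 104 tests have an asterisk, 21 of them lower and ITGA2 in MDA-MB-231 siNRP1#5 higher, and ITGB6 values rest on at most 52 counts.

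ITGB3, the β3 subunit of the vitronectin receptor αVβ3, fell furthest, and with the siRNA of sequence #5. In SUM159PT its CPM, the count scaled to the library, was 223, 227 and 144 in siNT, 34.8 and 31.7 in siNRP1#5 and 229, 259 and 212 in siNRP1#3. The siNRP1#5 samples lay far below both other groups, with a log2 fold change of −2.54 ± 0.33 against siNT (adjusted p = 0.0003), while siNRP1#3 overlapped siNT. In HS578T the values were 49.5, 45.4 and 65.0 in siNT, 15.9, 17.8 and 22.5 in siNRP1#5 and 74.3, 55 and 92.8 in siNRP1#3. siNRP1#5 again lay below siNT without overlap, by −1.48 ± 0.22 (adjusted p = 0.000459), and by −1.31 (adjusted p = 0.0017) with the MDA-MB-231 share subtracted, which by the measured share would carry 2.65, 2.06 and 1.49 CPM of ITGB3. Both results passed under every alternative setting that was run. No setting subtracted the SUM159PT share from the second HS578T siNRP1#5 sample (17.8 CPM), and ITGB3 is higher in SUM159PT siNT than in HS578T siNT.

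In MDA-MB-231, where ITGB3 is lower, siNT samples had 10.6, 9.17 and 14.8 CPM and siNRP1#5 samples 5.98, 3.58 and 11.4. The groups overlapped and the difference of −0.72 did not pass (adjusted p = 0.0765). Same-numbered samples of these groups deviated together and ITGB3 was lower in siNRP1#5 in each of the 3 pairs, and with the replicate block the difference was −0.80 and passed (adjusted p = 0.00375). That block also took in siNRP1#3, whose same-numbered pairs with siNT did not all deviate together. With shRNA, shNT had 14.1, 19.7 and 22.7 CPM, shNRP1#3 6.58, 9.31 and 10.2 and shNRP1#5 10.8, 9.76 and 8.50. Neither knockdown group overlapped shNT, with log2 fold changes of −1.10 ± 0.29 (adjusted p = 0.0444) and −0.96 ± 0.29 (adjusted p = 0.0261). Both ITGB3 calls were lost when replicates numbered 1 or 2 were left out of every group (adjusted p = 0.261 and 0.283 for shNRP1#3, 0.0748 and 0.138 for shNRP1#5), and the second also without replicates numbered 3 (0.0553). In SUM159PT, shNT had 92.5, 85.8 and 66.3 CPM and shNRP1#3 64.8, 34.8 and 47.2, a log2 fold change of −0.71 (adjusted p = 0.26), and shNRP1#5 had 40.6, 35.5 and 73.2, one of −0.66 (adjusted p = 0.19). In HS578T the ITGB3 fall with siRNA was not seen at that size with shRNA. There, shNT had 24.7 to 31.2 CPM, shNRP1#3 25.9 to 26.3 (−0.15, adjusted p = 0.915) and shNRP1#5 19.8 to 24.3 (−0.34, adjusted p = 0.388). Neither passed, although shNRP1#5 did not overlap shNT.

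ITGB5, which pairs with αV to bind vitronectin and serves in its uptake, fell in all 3 lines in 1 or 2 comparisons each. In SUM159PT it was 309.9, 295 and 226 CPM in siNT, 97.6, 93.6 and 93.3 in siNRP1#3 and 175 and 181 in siNRP1#5. Both knockdown groups lay below siNT, but the difference passed with siNRP1#3 (−1.52 ± 0.24, adjusted p = 0.00108) and not with siNRP1#5 (−0.60, adjusted p = 0.122). In MDA-MB-231, siNT samples had 142, 179.8 and 212 CPM, siNRP1#3 samples 78.2, 78.9 and 101, and siNRP1#5 samples 131, 154 and 247. siNRP1#3 was lower by −1.03 ± 0.20 on the log2 scale (adjusted p = 0.000926), without overlap, while siNRP1#5 overlapped siNT.

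With shRNA in MDA-MB-231, ITGB5 was 155, 218 and 207 CPM in shNT and 108, 95.5 and 94.2 in shNRP1#5, again without overlap (−0.96 ± 0.20, adjusted p = 0.00255). For shNRP1#3 the ITGB5 difference of −0.49 did not pass (adjusted p = 0.204), but passed with the replicate block (−0.48, adjusted p = 0.034). Numbers paired shNRP1#3 with shNT, but the block also took in shNRP1#5, which they did not pair with shNT. Without the replicates of 1 number the ITGB5 calls were lost in SUM159PT siNRP1#3 (number 1, adjusted p = 0.0714), MDA-MB-231 siNRP1#3 (number 2, 0.0631) and MDA-MB-231 shNRP1#5 (number 2, 0.128). In HS578T, ITGB5 was 659, 648 and 1006 CPM in siNT, 331, 432 and 644 in siNRP1#3 and 456, 353 and 415 in siNRP1#5. Every knockdown sample was below every siNT sample, and siNRP1#5 passed (−0.88 ± 0.25, adjusted p = 0.0203). With the MDA-MB-231 share subtracted it did not (−0.63, adjusted p = 0.107), nor without replicates numbered 2 (0.199) or 3 (0.14).

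The collagen receptor subunits ITGA2 and ITGA1 followed. In SUM159PT, ITGA2 was 199.7, 68.1 and 113 CPM in siNT, 40.9, 48.7 and 37.2 in siNRP1#3 and 29.9 and 34.0 in siNRP1#5. The siNT samples were widely spread but stayed above all knockdown samples, and ITGA2 fell by −1.55 ± 0.34 (adjusted p = 0.0106) and −1.94 ± 0.40 (adjusted p = 0.00499). The ITGA2 calls were lost without replicates numbered 1 (adjusted p = 0.27 and 0.0677) or 3 (0.122 and 0.0795). In SUM159PT shRNA samples ITGA2 was 94.5, 127 and 129 CPM in shNT, 87.4, 91.4 and 81.3 in shNRP1#3 and 77.3, 27.9 and 67.8 in shNRP1#5, and neither difference passed.

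In MDA-MB-231, ITGA2 moved in opposite directions with the siRNAs. siNT samples had 53.0, 42.9 and 63.5 CPM, siNRP1#3 samples 27.5, 31.8 and 36.4 and siNRP1#5 samples 93.1, 59.9 and 77.7. siNRP1#3 lay below siNT without overlap (−0.71 ± 0.15, adjusted p = 0.00151), which held in every alternative that was run, and siNRP1#5 was higher with a small overlap (0.55 ± 0.15, adjusted p = 0.00828). The rise was lost without replicates numbered 1 (ITGA2, adjusted p = 0.132) or 2 (0.0559). In HS578T, ITGA2 was 10.3, 7.72 and 8.50 CPM in siNT and 21.3, 27.4 and 21.1 in siNRP1#5, without overlap but not past the threshold (1.41 ± 0.51, adjusted p = 0.0654). By the measured share, MDA-MB-231 RNA would carry 12.2, 9.48 and 6.86 CPM of these ITGA2 values, and with it subtracted the difference was 0.99 (adjusted p = 0.224). The SUM159PT share in the second sample (27.4 CPM) was not subtracted, and ITGA2 had a mean of 127 CPM in SUM159PT siNT.

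ITGA1 was 13.6, 5.50 and 7.07 CPM in SUM159PT siNT and 3.93 and 2.46 in siNRP1#5, lower without overlap (−1.41 ± 0.35, adjusted p = 0.0122). In MDA-MB-231, ITGA1 was 11.3, 9.77 and 14.5 CPM in siNT and 4.97, 6.11 and 6.22 in siNRP1#3 (−1.02 ± 0.24, adjusted p = 0.00381), and 23.9, 19.1 and 24.5 in shNT and 10.9, 11.9 and 9.25 in shNRP1#5 (−1.07 ± 0.23, adjusted p = 0.0032). The groups did not overlap in either pair. Leaving out replicates numbered 1 ended each of the 3 ITGA1 calls (adjusted p = 0.164, 0.0947 and 0.0665), and leaving out those numbered 3 ended that in SUM159PT (0.156). Reads shared with PELO were not separated from these values.

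**Figure D5:**
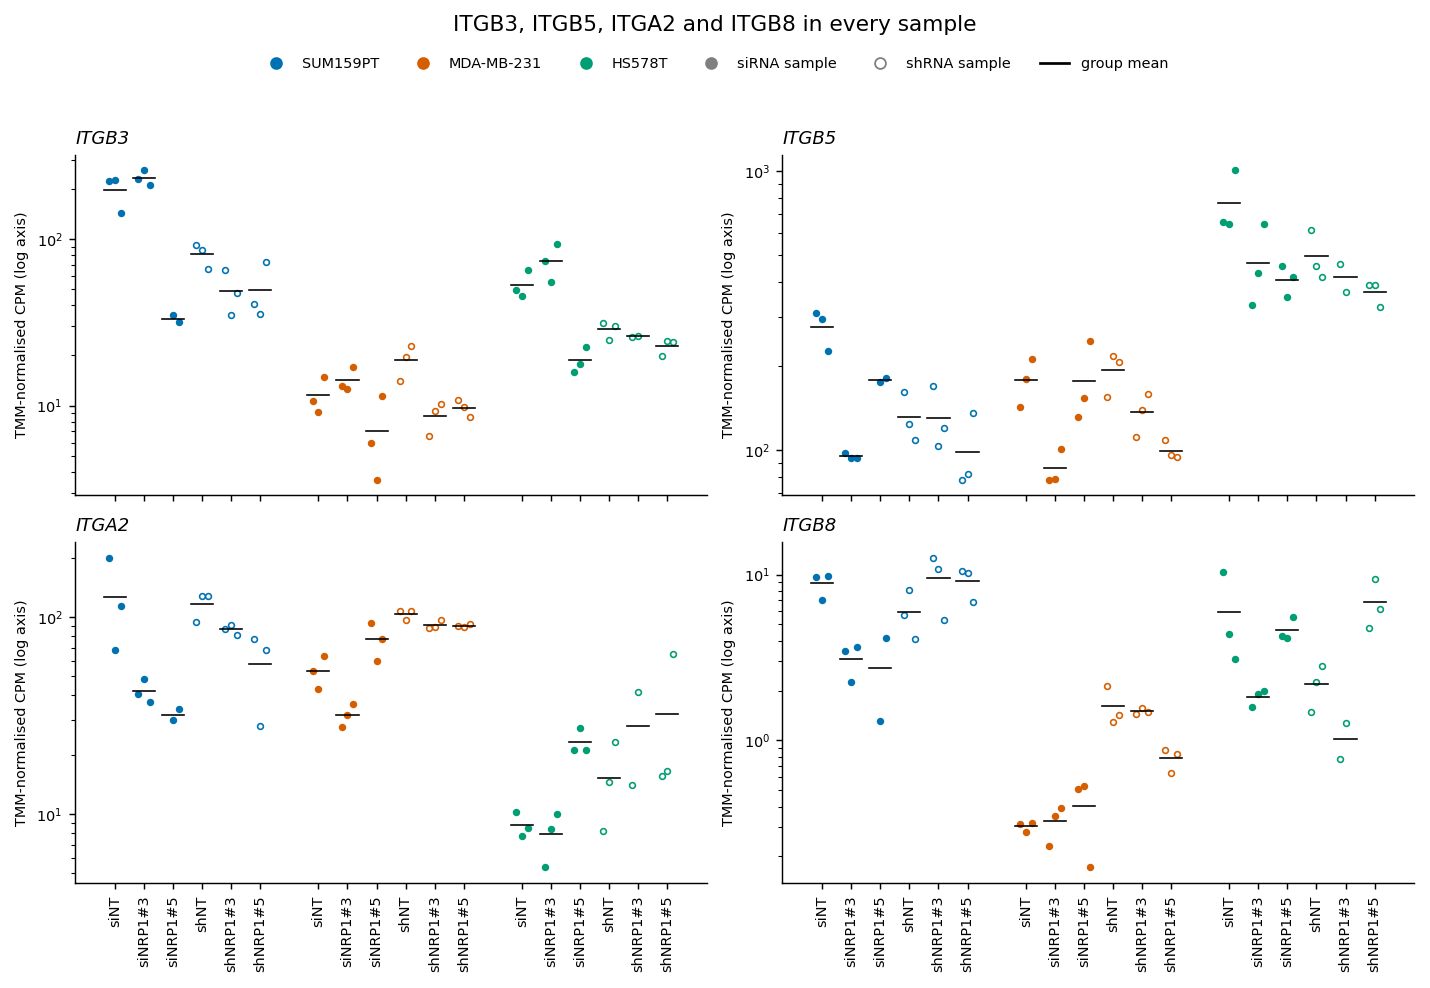
CPM of ITGB3, ITGB5, ITGA2 and ITGB8 in each sample of the 18 groups on a log axis (1 point per sample, filled for siRNA and open for shRNA, lines at group means). ITGB3 drops to 34.8 and 31.7 CPM in SUM159PT siNRP1#5 and to between 15.9 and 22.5 in HS578T siNRP1#5, while siNRP1#3 stays near siNT in both lines.

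ITGB8 was at low levels throughout and fell in 1 or 2 comparisons in each of the 3 lines. It was higher without passing with shNRP1#3 and shNRP1#5 in SUM159PT (0.71 and 0.68) and with siNRP1#3 and siNRP1#5 in MDA-MB-231 (0.10 and 0.44). It was lower without passing in MDA-MB-231 shNRP1#3 (−0.08) and in HS578T siNRP1#5 (−0.35) and shNRP1#3 (−1.12). In SUM159PT it was 9.73, 6.98 and 9.82 CPM in siNT, 3.44, 2.24 and 3.64 in siNRP1#3 and 1.31 and 4.17 in siNRP1#5. Both knockdown groups lay below siNT, by −1.48 ± 0.41 (adjusted p = 0.0354) and −1.62 ± 0.48 (adjusted p = 0.0286). Both ITGB8 calls were lost without replicates numbered 1 (0.322 and 0.162) or 2 (0.0541 and 0.118). In HS578T, ITGB8 was 10.3, 4.39 and 3.12 CPM in siNT and 1.59, 1.9 and 1.97 in siNRP1#3, without overlap (−1.69 ± 0.43, adjusted p = 0.0346). The HS578T call was lost without any 1 replicate number (log2 fold changes from −2.08 to −0.93). It was also lost in a fit without the siNRP1#5 samples (adjusted p = 0.0563) and with the share subtracted in both siRNA groups. The HS578T values of ITGB8 are those of the whole gene, and in siNT most of its TPM fell on a retained-intron transcript.

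In MDA-MB-231, ITGB8 was 2.14, 1.29 and 1.42 CPM in shNT and 0.876, 0.634 and 0.828 in shNRP1#5, lower without overlap (−1.04 ± 0.29, adjusted p = 0.0169, and 0.133 and 0.155 without replicates numbered 1 or 2). In the HS578T shRNA samples there were 1.48, 2.26 and 2.82 CPM in shNT and 4.75, 9.41 and 6.21 in shNRP1#5. The shNRP1#5 samples were all above shNT, but the ITGB8 difference of 1.62 ± 0.43 did not pass (adjusted p = 0.0797). Replicate numbers paired the HS578T shRNA samples, and with the replicate block the difference was 1.61 and passed (adjusted p = 0.0161).

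The remaining members passed in 1 comparison or in 0. ITGAV, the α subunit shared by β3, β5, β6 and β8, was 64.8, 49.4 and 54.5 CPM in MDA-MB-231 siNT and 34.9, 37.0 and 32.5 in siNRP1#3, lower without overlap (−0.67 ± 0.18, adjusted p = 0.0121). The ITGAV call was lost without replicates numbered 3 (0.0923). In SUM159PT, ITGAV was 192, 96.1 and 133 CPM in siNT and 90.9 and 46.5 in siNRP1#5 (−0.99, adjusted p = 0.0594), and in HS578T siNRP1#5 its log2 fold change was 1.10 (adjusted p = 0.0707), or 1.18 with the share subtracted (adjusted p = 0.076), so that neither passed.

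ITGB1, the partner of α1, α2, α4 and α5, was 615, 566 and 701 CPM in MDA-MB-231 siNT and 423, 481 and 457 in siNRP1#3. Its fall by −0.44 ± 0.15 was the smallest that passed (adjusted p = 0.032), and it was lost without any 1 replicate number (adjusted p between 0.0563 and 0.238). ITGA5, the fibronectin receptor's α subunit, passed in 0 of 12 comparisons by edgeR, and its difference in MDA-MB-231 siNRP1#5, where replicate 3 had 838 CPM against 375 and 385 in the others, was 0.57 (adjusted p = 0.0603). With DESeq2 that ITGA5 difference passed (adjusted p = 0.0355), as it did with the replicate block (0.50, adjusted p = 0.0198), which also took in siNRP1#3.

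ITGA4, tested in HS578T, was 24.6, 19.8 and 14.9 CPM in siNT, 4.74, 8.33 and 6.21 in siNRP1#3 and 9.33, 17.7 and 24.6 in siNRP1#5. siNRP1#3 lay below siNT without overlap (−1.60 ± 0.33, adjusted p = 0.00999), and siNRP1#5 overlapped it. The ITGA4 call was lost without replicates numbered 1 (0.0662) or 2 (0.167), and by limma on either TPM scale. ITGB6 counts in SUM159PT were 19, 5 and 8 in siNT, 24, 12 and 49 in siNRP1#3 and 1 and 1 in siNRP1#5, and neither group passed against siNT, with ITGB6 log2 fold changes of 1.32 (adjusted p = 0.248) and −3.20 (adjusted p = 0.0571). In bulk samples such as these, a lower level per cell and a smaller part of cells with the mRNA cannot be told apart.

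The question whether sequences #5 and #3 acted alike was tested directly. With siRNA, #5 differed from #3 in 6 members in SUM159PT (29.7% of all genes), 6 in MDA-MB-231 (39% of all genes) and 4 in HS578T (18.1% of all genes). ITGB3 was lower with #5 in all 3 lines, by −2.80 ± 0.34 in SUM159PT (adjusted p = 5.46e-05), −1.04 ± 0.30 in MDA-MB-231 (adjusted p = 0.00943) and −2.0 ± 0.22 in HS578T (adjusted p = 9.4e-05), and with the share subtracted by −1.83 in HS578T. In comparisons of #5 with #3 the share was subtracted from siNRP1#5 alone, although siNRP1#3 also carried 2.43 to 7.13%. ITGB5 was higher with #5 in SUM159PT (0.92, adjusted p = 0.0131) and MDA-MB-231 (1.03, adjusted p = 0.00044). Without replicates numbered 1 or 2 the ITGB3 difference in MDA-MB-231 was lost (0.104 and 0.0993), and the ITGB5 difference in SUM159PT was lost without any 1 replicate number.

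Of the α subunits, ITGA2 was higher with siNRP1#5 than with siNRP1#3 in MDA-MB-231 (1.26 ± 0.15, adjusted p = 2.15e-06, kept in every alternative run) and in HS578T (1.54, adjusted p = 0.0474), where it was 1.12 with the share subtracted from siNRP1#5 alone (adjusted p = 0.168). ITGA1 was lower with #5 in SUM159PT (−0.98, adjusted p = 0.0409) and higher in MDA-MB-231 (1.14, adjusted p = 0.000804). ITGA5 was higher with #5 in SUM159PT (0.69, adjusted p = 0.0249) and MDA-MB-231 (0.70, adjusted p = 0.0181), and ITGAV was lower in SUM159PT (−1.31, adjusted p = 0.0117). ITGB1 in MDA-MB-231 (0.42, adjusted p = 0.0273), ITGB6 in SUM159PT (adjusted p = 0.00596, on the counts above) and ITGA4 (1.40, adjusted p = 0.009) and ITGB8 (1.34, adjusted p = 0.0403) in HS578T completed the list. With the share subtracted from siNRP1#5 alone the last 2 were 1.72 (ITGA4, adjusted p = 0.00259) and 1.67 (ITGB8, adjusted p = 0.0189). Of the 20 differences between #5 and #3 over both kinds of knockdown, 4 passed without each replicate number in turn, namely ITGB3 in SUM159PT and HS578T and ITGA2 and ITGB5 in MDA-MB-231.

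With shRNA, #5 and #3 differed in 0 of 9 members in SUM159PT by edgeR beside 8.71% of all genes (1 at an unadjusted p under 0.05 and 0 by DESeq2). In MDA-MB-231 they differed in 3 members beside 14.2%, with ITGA1 (−0.70, adjusted p = 0.0492), ITGAV (−0.64, adjusted p = 0.0257) and ITGB8 (−0.96, adjusted p = 0.0362) lower with shNRP1#5. In HS578T they differed in ITGB8 alone among the members, beside 0.544% of all genes. ITGB8 was 0.775 and 1.27 CPM in shNRP1#3 and 4.75, 9.41 and 6.21 in shNRP1#5, without overlap, a log2 fold change of 2.74 ± 0.52 (adjusted p = 0.0224). The ITGB8 call was lost without any 1 replicate number (adjusted p between 0.0638 and 0.7).

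siNRP1#5 and shNRP1#5 carry 1 sequence, so their effects, each against its own NT control, were compared. In SUM159PT 1 of 9 members differed beside 2.51% of all genes, namely ITGB3, whose effect was −2.54 with siRNA and −0.66 with shRNA (difference −1.88 ± 0.41, adjusted p = 0.0302). In MDA-MB-231, 4 of 8 differed beside 23.7%: ITGA1 (difference 1.19, adjusted p = 0.012), ITGA2 (0.74, adjusted p = 0.0135), ITGB5 (0.96, adjusted p = 0.0177) and ITGB8 (1.48, adjusted p = 0.026). These were lower with shRNA against shNT than with siRNA against siNT. In HS578T 0 of 9 differed by edgeR beside 0.854%, with 2 at an unadjusted p under 0.05 and 2 by DESeq2. There, ITGB3 passed with the replicate block (difference −1.14, adjusted p = 0.0225), and with the MDA-MB-231 share subtracted it was −0.97 (adjusted p = 0.204). The block also took in the HS578T siRNA samples, which numbers did not pair in every case. Each of the 5 calls was lost without replicates of at least 1 number, with adjusted p up to 0.45 for ITGB3, 0.158 for ITGA1, 0.14 for ITGA2, 0.219 for ITGB5 and 0.3 for ITGB8. Delivery, selection and time of harvest differ together between siRNA and shRNA samples and cannot be told apart.

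The 2 kinds of NT control differed from each other in several members. shNT differed from siNT in 5 of 9 members in SUM159PT (14.4% of all genes), 4 of 8 in MDA-MB-231 (20.6%) and 2 of 9 in HS578T (17.9%). In SUM159PT all 5 were lower in shNT, with ITGB3 at −1.3, ITGA1 at −1.12, ITGAV at −1.11, ITGB5 at −1.09 and ITGA5 at −1.06 on the log2 scale. In MDA-MB-231 ITGB8 was 0.315, 0.282 and 0.319 CPM in siNT and 2.14, 1.29 and 1.42 in shNT (2.35 ± 0.33, adjusted p = 7.21e-05), ITGA2 (0.92) and ITGA1 (0.87) were higher and ITGA5 (−0.83) lower. In HS578T ITGB3 (−0.85) and ITGB8 (−1.41) were lower in shNT. Leaving out replicates numbered 1 left 2 of these 11 calls, ITGB8 and ITGA2 in MDA-MB-231.

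The effect of a sequence was compared across the 3 lines by an F test in the model of all samples. For siNRP1#3, 0 of 10 members differed by edgeR beside 3.42% of all genes (4 at an unadjusted p under 0.05, 0 by DESeq2), and for shNRP1#3 0 beside 0.747% (3 and 0). For siNRP1#5, 4 differed beside 18.2%, and for shNRP1#5 2 beside 3.81%. ITGA2 under siNRP1#5 differed in sign, with −1.94 for SUM159PT, 0.55 for MDA-MB-231 and 1.41 for HS578T (adjusted p = 0.000384), and ITGB3 was −2.54, −0.72 and −1.48 (adjusted p = 0.00664). ITGAV (adjusted p = 0.0076) and ITGA1 (adjusted p = 0.0272) also differed under siNRP1#5, but not between SUM159PT and MDA-MB-231 alone, without HS578T siNRP1#5 (0.48 and 0.136), where ITGA2 (0.0255) and ITGB3 (0.0188) still did. Under shNRP1#5, ITGB8 was 1.62 in HS578T and −1.04 in MDA-MB-231 (adjusted p = 0.00894), and ITGA1 differed as well (adjusted p = 0.0303). ITGA2 under siNRP1#5 passed without each replicate number, while the others were lost without at least 1, with adjusted p up to 0.0735 for ITGB3, 0.427 for ITGAV, 0.386 and 0.294 for ITGA1 and 0.238 for ITGB8.

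Genes around these receptors were counted in the same fits. Of 16 other integrin subunits, 12 or 13 were tested per line and calls were mostly downward: 4, 3, 1 and 1 lower in SUM159PT (siNRP1#3, siNRP1#5, shNRP1#3, shNRP1#5), beside 8.66, 17.9, 1.4 and 5.94% of all genes. In MDA-MB-231 3, 1, 2 and 5 were lower and 4 were higher, all with siNRP1#5, beside 25.7, 29.4, 3.65 and 20.7% of all genes. In HS578T 2 were lower with each siRNA and 1 was higher with siNRP1#5, beside 4.65 and 18.7%, and with the MDA-MB-231 share subtracted in both groups 0 were called with siNRP1#3 and 1 was lower with siNRP1#5. The HS578T shRNAs gave 0 by edgeR's quasi-likelihood test beside 0.0356 and 0.946% of all genes, with 4 and 3 at an unadjusted p under 0.05. The list's median log2 fold change lay between −1.23 in HS578T shNRP1#3 and 0.15, beside medians of all genes tested between −0.01 and 0.03. ITGAL, a leukocyte subunit at or below 2.31 TPM, fell in SUM159PT by −2.47 with siNRP1#3 and −3.81 with siNRP1#5. ITGA10, a collagen-binding subunit, fell in HS578T by −1.24 with siNRP1#3 and −2.16 with siNRP1#5. With the share subtracted in both groups the ITGA10 values were −1.16 (adjusted p = 0.0596) and −1.81 (adjusted p = 0.0029), so that the first did not pass. ITGAX (−2.03 and −1.76) and the laminin-binding subunit ITGA7 (−1.47 and −1.14) fell in MDA-MB-231 with shNRP1#3 and shNRP1#5. Both are low in that line, at or below 0.63 TPM for ITGAX and 2.63 TPM for ITGA7.

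Of 18 adhesion adaptors, between 0 and 6 rose and between 0 and 3 fell per comparison, beside 0.0356 to 29.4% of all genes called. The comparison with most of these calls was MDA-MB-231 siNRP1#5, with 6 and 3 of 18 beside 29.4% of all genes, and the list's medians lay between −0.19 and 0.35. In MDA-MB-231 with siNRP1#3 and siNRP1#5, FERMT3, a kindlin, rose by 0.81 and 1.69, LIMS1, a binding partner of integrin-linked kinase, fell by −1.42 and −0.50, and TNS3, a tensin, fell by −0.50 and −0.57. TNS1 rose by 0.85 and 0.73 in MDA-MB-231 with the shRNAs. FERMT2, the kindlin of most adherent cells, rose by 1.14 and 1.22 in HS578T with siNRP1#3 and siNRP1#5, and by 1.19 and 1.42 with the share subtracted in both groups (FERMT2, adjusted p = 0.0392 and 0.00705).

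Of 20 ligand genes, FN1, the gene of fibronectin, had a median of 2363 TPM in HS578T, 765 in SUM159PT and 109.5 in MDA-MB-231, whereas VTN, the gene of vitronectin, stayed at or below 2.67 TPM. In the controls 14 ligand genes were higher and 2 lower in HS578T than in MDA-MB-231, and 15 higher and 5 lower than in SUM159PT, beside 70.2% and 63.5% of all genes called in either direction. With knockdown in MDA-MB-231, 8 of 19 tested fell and 2 rose with siNRP1#3 (25.7% of all genes called), 3 fell and 5 rose with siNRP1#5 (29.4%), 1 fell and 2 rose with shNRP1#3 (3.65%), and 7 fell and 1 rose with shNRP1#5 (20.7%). In SUM159PT, 5 of 20 fell and 1 rose with siNRP1#5 (17.9%), whereas 3 rose with shNRP1#5 (5.94%). In HS578T, 2 rose with each siRNA, with and without the share subtracted, and 1 fell with siNRP1#5 only without the subtraction, beside 4.65% (siNRP1#3) and 18.7% (siNRP1#5) of all genes. The other 4 comparisons, both #3 groups in SUM159PT and both shRNAs in HS578T, gave 0 ligand genes by edgeR's quasi-likelihood test, with 3 and 4 and with 1 and 4 at an unadjusted p under 0.05. Of all genes, 8.66 and 1.4% and 0.0356 and 0.946% were called there. In MDA-MB-231 with siNRP1#3 and siNRP1#5, THBS1, the gene of thrombospondin-1, fell by −1.92 and −0.58, COL4A2, a chain of basement membrane collagen, by −0.79 and −1.28 and TGFB3 by −0.84 and −0.78, and CCN2, a matricellular ligand, rose by 0.73 and 0.86. All values named for these lists without a p had an adjusted p below the threshold of 0.05, and the lists were chosen with earlier results of these data known.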

How the data were processed

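Per the methods and the submitters' processing notes, the authors checked reads with FastQC 0.11.9, trimmed them with Trim Galore 0.6.5, aligned them with STAR 2.7.2b to GRCh38 and quantified genes and transcripts with RSEM 1.3.3. The deposited expected counts of genes are not scaled for depth and need not be whole. The deposited TPM are scaled by the authors for length and depth, and the deposited isoform percent gives the part of a gene's TPM that falls on 1 transcript. Transcript counts and transcript TPM were not used here, nor were 2 samples left out by the authors. All columns matched a sample by name (0 were left over).

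Expected counts were rounded and tested with edgeR 4.0.16 in R 4.3.3 (filterByExpr, TMM scaling, estimateDisp, robust glmQLFit and glmQLFTest), in 1 model per cell line with 6 group means and 1 model over all 52 samples with 18. Adjustment followed Benjamini and Hochberg over all genes tested, with a threshold of 0.05, and the steps were tested on simulated data. The standard error was computed as the absolute log2 fold change over the square root of F. CPM use TMM factors over all 52 samples. Precision rests on 2 or 3 samples per group, and reads carried no molecular identifiers, so counts include amplified copies. Alternatives were DESeq2 1.42.0 on the counts, limma 3.58.1 on log2(TPM + 1) and log2(TPM + 0.1), no filter on low counts, a replicate block, only the groups compared, and each replicate number left out. RNA of another line was estimated as the median share over genes with at most 0.5 CPM in the line's own NT controls and at least 20 CPM in the other's. Figures used Python 3.11.15, pandas 2.3.3 and matplotlib 3.10.9.

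The text does not give every result of the 10 members, and many differences that did not pass are left out. Among these are ITGA1 in the HS578T knockdown groups and ITGB1 in those of SUM159PT and HS578T. ITGB5 in the SUM159PT and HS578T shRNA groups is also left out. The plot of log2 fold changes by member and comparison shows all tested members in each knockdown comparison. From lists of other integrin subunits, adaptors and ligands, up to 5 genes each were named that passed in the same direction with both sequences of 1 kind in a line, by the largest mean change. Members and lists were chosen with earlier results of these data known. As a check of pairing, deviations of same-numbered samples from their group means were correlated within each line and kind of knockdown. Every pair was above 0.1 (0.194 to 0.807 over 7 pairs) in the HS578T shRNA samples, while 4 to 7 of 7 or 9 pairs were in the others, so replicate numbers were taken to pair samples in that set. Between 2 single groups, all 3 pairs were above 0.1 in 5 comparisons of a knockdown group with its NT control, where blocked values are given if they change a call. The block was fitted over all groups of a line and kind, so it also took in groups that did not pair. In MDA-MB-231, pairs of shNRP1#5 with shNT ran from −0.268 to 0.091 and those of siNRP1#3 with siNT from 0.019 to 0.470.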

Additional observations from a re-analysis of the deposited data

Results flagged for a closer look

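Effects of 1 knockdown sequence that differed between siRNA and shRNA, or between cell lines, by a test of the difference itself in edgeR's quasi-likelihood model, are gathered here. The effect of siNRP1#5 against siNT differed from that of shNRP1#5 against shNT for ITGB3 in SUM159PT (adjusted p = 0.0302) and for ITGA1 (0.012), ITGA2 (0.0135), ITGB5 (0.0177) and ITGB8 (0.026) in MDA-MB-231. Across the 3 lines, the siNRP1#5 effect differed for ITGA2 (0.000384), ITGB3 (0.00664), ITGAV (0.0076) and ITGA1 (0.0272), and the shNRP1#5 effect for ITGB8 (0.00894) and ITGA1 (0.0303). The HS578T siNRP1#5 samples, which enter the comparison across lines, carried 12.9 to 23.0% of the MDA-MB-231 marker level, and the 4 differences under siNRP1#5 passed with that share subtracted (adjusted p = 0.00273 for ITGA2, 0.00974 for ITGB3, 0.0107 for ITGAV and 0.03 for ITGA1). Without those samples, between SUM159PT and MDA-MB-231 alone, ITGAV and ITGA1 did not pass (0.48 and 0.136).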

How the results depend on the processing

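No called member result changed its direction under any alternative that was run, and 27 of 83 called member results (differences across lines not counted) passed in every alternative. Of the 22 knockdown calls, 3 did: ITGB3 with siNRP1#5 in SUM159PT and HS578T, and ITGA2 with siNRP1#3 in MDA-MB-231. Knockdown calls of members were 4 in HS578T, and 7 with DESeq2, 10 without the filter, 7 with the replicate block, 2 with limma on either TPM scale, 1 to 5 without 1 replicate number, 2 with the share of MDA-MB-231 subtracted in both siRNA groups and 1 in a fit without siNRP1#5. They were 11 in MDA-MB-231, and 7 with limma on log2(TPM + 0.1) and 4 to 9 without 1 replicate number. In SUM159PT they were 7, and 4 in fits of only the groups compared and 1 to 7 without 1 replicate number. Differences between #5 and #3 were 20, and 8 and 10 with limma (pseudocounts of 1 and 0.1) and 7 to 12 without 1 replicate number. Differences between shNT and siNT were 11, and 2 to 11 without 1 number. Differences of effect across lines were 6, and 12 without the filter and 2 to 4 without 1 number. Differences between the siNRP1#5 and shNRP1#5 effects were 5, and 10 with DESeq2, 8 without the filter, 8 with the replicate block, 3 and 2 with limma, 3 in fits of only the groups compared and 1 to 3 without 1 number. The 25 differences between lines gave 21 to 25 in every alternative.

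Among comparisons whose samples the numbers paired, the replicate block changed ITGB8 in HS578T shNRP1#5, ITGB3 and ITGA5 in MDA-MB-231 siNRP1#5 and ITGB5 in MDA-MB-231 shNRP1#3 as given, and no other knockdown call. Of differences of effects that use the HS578T shRNA samples, it added ITGB3 between siNRP1#5 and shNRP1#5 in HS578T as given and ITGA2 for shNRP1#5 across lines (adjusted p = 0.0101). In the other comparisons, samples share a number only. Over all comparisons with NT controls, the block gave 14 knockdown calls in MDA-MB-231 and 7 in SUM159PT. Fits without 1 number leave 1 sample in the groups of 2, which is then assumed to vary like the other groups. Counts were too few to say much of ITGA4 outside HS578T and of ITGB6 in all 3 lines. Subtracting the share from genes low in both other lines and leaving out HS578T siNRP1#5 from the fit of all samples were chosen after seeing the data, as were the subtraction in both siRNA groups and the HS578T fit without siNRP1#5, and the causes of the changes were not tested.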
